A study of Mus musculus with 17 samples.

Results

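Auts2 and 9 genes of Polycomb repressive complex 1 (PRC1) were examined in cells that express a dominant-negative chromatin remodeler. The 10 genes were taken by symbol from the platform annotation, out of 19938 genes measured, and each was read from its probe set with the highest mean signal. Auts2 was selected on its measured rise in dnBrg1 alone, so its levels are given as a description without a test. The other 9, Pcgf3, Pcgf5, Ring1, Rnf2, Rybp, Bmi1, Cbx2, Cbx7 and Cbx8, were taken as PRC1 partners of Auts2 and not for their own values.

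All samples were 3134 cells, a mouse mammary epithelial line, carrying a tetracycline-regulated transactivator, and were profiled on 17 Affymetrix Mouse Gene 1.0 ST arrays. The dnBrg1, dnChd4 and dnSnf2h lines also held a stably integrated, Flag-tagged dominant-negative form of a remodeler motor: Brg1 of the SWI/SNF complexes, Chd4 of NuRD or Snf2h of the ISWI complexes. The control line held the transactivator only. Stocks of every line were kept in 5 µg/ml tetracycline, which silences the transactivator and the transgene, and cells were then plated in charcoal-treated serum for 48 h without the drug (induced) or with it (repressed). Each dominant-negative line had 2 induced and 2 repressed arrays, and the control line had 3 induced and 2 repressed arrays. The labels name neither the number of clones behind a line nor separate cultures behind the replicates. P-values therefore reflect how much these particular arrays vary, and that variation could be technical.

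PRC1 is a chromatin complex that places ubiquitin on histone H2A and helps keep developmental genes silent. Its catalytic core is a RING-type ubiquitin ligase, Ring1 or Rnf2 (also called Ring1b), bound to 1 of several Pcgf proteins, and the Pcgf protein sorts complexes into kinds. Bmi1 is a Pcgf protein of canonical complexes, which carry a Cbx subunit that reads methylated histone H3, while Rybp marks variant complexes. Auts2, best known from the developing nervous system, joins variant complexes built on Pcgf3 or Pcgf5 and has been linked there to casein kinase 2 and p300 and to gene activation.

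The RefSeq promoter windows (build GRCm38.p6) held 7 of the 10 genes, and Auts2, Rybp and Cbx2 had no entry. The 250 bases upstream of the start are printed for Rnf2 and Pcgf3, because both genes rose in the dnSnf2h line. Both strands were searched for the GC box (GGGCGG), the CCAAT box (CCAAT), the TATA box (TATAAA), the E box (CACGTG) and the AP-1 site (TGANTCA). Capitals mark each match, and no motif overlapped one of another kind in these windows.
Pcgf3, chr5:108461009-108461258, plus strand: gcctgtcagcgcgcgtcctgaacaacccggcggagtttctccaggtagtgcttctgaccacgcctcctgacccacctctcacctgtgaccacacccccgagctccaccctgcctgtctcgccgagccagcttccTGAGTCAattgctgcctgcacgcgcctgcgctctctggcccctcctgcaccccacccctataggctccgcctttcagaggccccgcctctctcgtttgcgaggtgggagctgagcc
Rnf2, chr1:151500992-151501241, minus strand: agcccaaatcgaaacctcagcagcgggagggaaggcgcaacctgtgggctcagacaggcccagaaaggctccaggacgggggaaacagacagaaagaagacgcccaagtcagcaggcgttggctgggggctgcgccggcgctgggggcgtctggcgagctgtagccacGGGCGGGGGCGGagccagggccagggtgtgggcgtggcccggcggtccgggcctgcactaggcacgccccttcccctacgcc
Pcgf3 held 16 CpG and 1 AP-1 match, and Rnf2 held 20 CpG and 2 GC boxes, against a median of 6 CpG over 32851 windows of the same length. Of those windows, 6.75% held TGANTCA and 32.7% held GGGCGG. Among the members not printed, Bmi1 held 21 CpG, 6 GC boxes and 1 E box, and Ring1 held 30 CpG and 2 GC boxes.

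Several facts of the series bear on the values that follow. The control arrays fell into 2 sets that cut across their labels. Across genes, the library labelled repressed replicate 1 correlated at r = 0.995 with those labelled induced replicates 2 and 3, which correlated at 0.997 with each other. Repressed replicate 2 correlated at 0.994 with induced replicate 1, and pairs across the 2 sets reached at most 0.977. Contrasts among the dominant-negative lines were therefore fitted on their own 12 arrays, and contrasts that involve the control line on 17 arrays. Chd4 rose by 1.82 on the log2 scale in the dnChd4 line, whereas Smarca4 (Brg1) differed by 0.12 in dnBrg1 and Smarca5 (Snf2h) by -0.24 in dnSnf2h without passing the test, although these probe sets need not see the transgenes. Of 9 epithelial markers, 6 lay above the level of 4.77 that bounds the dimmest 30% of genes, such as Krt8 (5.81 to 6.62) and Cdh1 (5.04 to 5.48), while Epcam read 3.94 to 4.32. Vim, a mesenchymal intermediate filament gene, read 12.29 to 13.16. The mean of 8 mesenchymal markers was 8.69 to 8.80 in induced dnBrg1 arrays and 9.28 to 9.32 in repressed dnBrg1 arrays, and that of 7 myoepithelial and basal markers was 5.30 to 5.32 and 5.61 to 5.67. The mean of 6 macrophage markers was 4.99 to 5.03 in induced and 4.89 to 4.92 in repressed dnBrg1 arrays. Of these 6, Ptprc, a defining marker of blood cells, stayed between 4.21 and 4.65 in all 17 arrays. Adgre1 spanned 3.81 to 4.12, Csf1r 4.23 to 4.63 and Itgam 3.59 to 4.26, whereas Lyz2 spanned 4.54 to 7.59 and Cd68 5.54 to 6.86. The mean of 4 neuronal markers stayed between 4.66 and 4.84 in all 17 arrays. That of 3 endothelial markers was 4.55 to 4.58 in induced and 4.48 to 4.54 in repressed dnBrg1 arrays, against 5.67 to 5.94 in the other lines. Of these 3, Cdh5 spanned 3.86 to 8.33, Pecam1 4.32 to 4.80 and Kdr 4.52 to 5.16. In whole cultures such as these, fewer cells of a type and less RNA per cell cannot be told apart.

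Auts2 stood high in 1 condition. It read 6.97 and 7.23 log2 units in induced dnBrg1 arrays, against 4.98 and 4.91 in repressed dnBrg1 arrays. It read 4.74 and 4.70 in induced and 4.85 and 4.86 in repressed dnChd4 arrays, and 4.62 and 4.71 in induced and 4.87 and 4.61 in repressed dnSnf2h arrays. The control line gave 4.85, 4.79 and 4.98 in induced arrays and 4.91 and 4.81 in repressed arrays. The other 15 arrays thus spanned 0.37 log2 units, with a median of 4.85, and the lower induced dnBrg1 array lay 1.99 above the highest of them.

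In group means, induced dnBrg1 cells had 7.10 ± 0.18 and repressed dnBrg1 cells 4.94 ± 0.05 (SD, n = 2 each), a difference of 2.16 or 4.47-fold, which ranked 2 among the rises of 19938 genes in that line. The same difference was -0.13 in dnChd4, -0.07 in dnSnf2h and 0.01 in control. After induced dnBrg1, the order of the means was repressed dnBrg1 (4.94), induced control (4.87), repressed control (4.86), repressed dnChd4 (4.85), repressed dnSnf2h (4.74), induced dnChd4 (4.72) and induced dnSnf2h (4.67). Each neighbouring pair in that order after induced dnBrg1 overlapped in its arrays. These 7 lower groups lay near that level of 4.77 for dim genes, so how low Auts2 RNA was there cannot be read from the signal. The mesenchymal, myoepithelial and macrophage marker means moved with the dnBrg1 condition as given above, and their part in the Auts2 values was not tested.

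The genes most like Auts2 were ranked by Pearson correlation over 17 arrays among 4014 genes that spanned at least 1 log2 unit. They were Csnk1g1 (r = 0.960), a casein kinase 1 gene, Slc40a1 (0.947), which encodes the iron exporter ferroportin, and Serpini1 (0.937), which encodes neuroserpin. Next came Hs3st1 (0.927), a heparan sulfate sulfotransferase gene, and Mfsd13a (0.922). Csnk1g1 read 10.13 and 10.21 in induced dnBrg1 arrays and 6.97 to 7.58 in the other 15. Slc40a1 read 6.58 and 6.39 in induced dnBrg1 arrays and 3.66 to 4.77 elsewhere. The likeness is carried by those 2 arrays: over the other 15, r with Auts2 was -0.389 for Csnk1g1, 0.499 for Slc40a1, 0.003 for Serpini1, 0.429 for Hs3st1 and 0.036 for Mfsd13a, and Spearman's rho over all 17 ran from 0.096 to 0.554. Within the 12 dominant-negative arrays, 4 of these 5 were again among the closest 5, joined by Lrrc27 (r = 0.954). All points come from arrays of a single deposited table, and the correlations are given without a p.

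**Figure D1:**
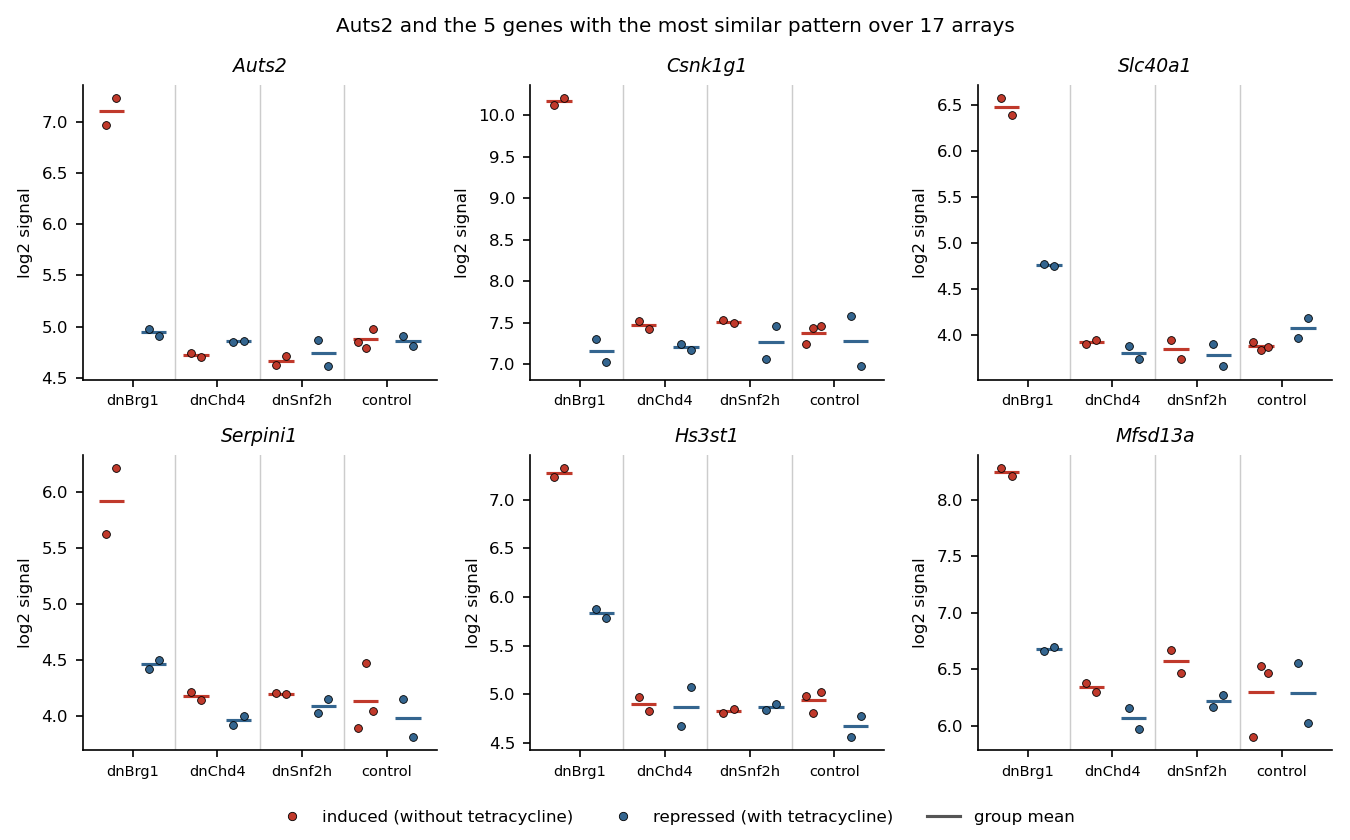
Log2 signal (vertical axis, a separate range for each gene) of Auts2 and the 5 genes with the highest correlation with it, in each line (horizontal axis), with 1 point per array and a bar at each group mean. Both induced dnBrg1 arrays lie above the other 15 in every panel, and Hs3st1 and Slc40a1 are also higher in repressed dnBrg1 arrays than in the other lines' arrays.

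Among the 12 dominant-negative arrays each of the 9 partners spanned between 0.35 (Ring1) and 1.03 (Cbx2) log2 units. By limma with Benjamini-Hochberg adjustment over 19938 genes and a threshold of 0.05, 1 partner rose and 1 fell in dnBrg1, where 14.2% of all genes were called (8.01% higher and 6.22% lower). In dnChd4 1 fell, where 18% were called (11.2% higher and 6.82% lower). In dnSnf2h 2 rose and 1 fell, where 17.5% were called (9.2% higher and 8.34% lower). In control none was called, where 0% of all genes were called and 845 genes had an unadjusted p under 0.05. The median difference of the 9 was 0.08, 0.00 and 0.15 in dnBrg1, dnChd4 and dnSnf2h, against -0.0347, -0.0274 and -0.00868 over all genes. The calls made up 22.2%, 11.1% and 33.3% of the 9 partners. These counts read Rybp from probe set 10410209. Its other probe set, 10546706, passed as higher in dnBrg1 in a limma fit over all singly named probe sets (0.40, adjusted p = 0.0463), so the dnBrg1 count depends on that choice. Induced and repressed arrays did not overlap for 8 of 9 partners in dnBrg1, 7 in dnChd4 and 6 in dnSnf2h, where 53.4%, 60.1% and 46.4% of all genes did not. In control 1 of 9 did not overlap, beside 12.7% of all genes. The mean of the 8 mesenchymal markers was 8.94 to 9.18 in induced against 9.32 to 9.33 in repressed dnSnf2h arrays, and 9.25 to 9.28 against 9.22 to 9.39 in dnChd4. That of the 7 myoepithelial and basal markers was 6.04 to 6.17 in induced against 5.78 to 5.79 in repressed dnChd4 arrays, and 5.89 to 5.98 against 5.79 to 5.81 in dnSnf2h. That of the 6 macrophage markers was 4.96 to 5.04 in induced against 4.58 in both repressed dnChd4 arrays, and 4.95 to 5.03 against 4.68 to 4.81 in dnSnf2h. The part of these markers in the partners' differences was not tested.

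The ligase gene Rnf2 rose in 2 lines. It read 8.90 and 8.82 in induced dnBrg1 arrays against 8.60 and 8.34 in repressed ones, and 8.76 and 8.85 in induced dnSnf2h arrays against 8.33 and 8.32 in repressed ones. In dnChd4 it read 8.66 and 8.81 induced and 8.39 and 8.50 repressed. Induced arrays lay above repressed arrays in all 3 lines, where 53.4%, 60.1% and 46.4% of all genes had no overlap in 1 direction or the other (dnBrg1, dnChd4 and dnSnf2h). The differences were 0.39 (SE 0.105, adjusted p = 0.022) in dnBrg1 and 0.48 (SE 0.105, adjusted p = 0.00478) in dnSnf2h, both past the threshold, and 0.29 (adjusted p = 0.0741) in dnChd4. The dnBrg1 call was lost without repressed replicate 2 (0.26, adjusted p = 0.231), induced replicate 1 (adjusted p = 0.163) or induced replicate 2 (adjusted p = 0.0886) of that line, and the dnSnf2h call held without any 1 array. Its paralog Ring1, the alternative ligase, read 7.60 to 8.11 over all arrays and was called in no induction, with differences of 0.05, 0.00 and 0.19 in dnBrg1, dnChd4 and dnSnf2h.

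Pcgf3, a core subunit of the complexes that take up Auts2, rose in dnSnf2h, with 8.66 and 8.78 in induced arrays and 8.11 and 8.38 in repressed arrays. That difference was 0.48 (SE 0.105, 1.39-fold, adjusted p = 0.00491) and held without any 1 array, but its adjusted p was 0.0776 when the dnSnf2h arrays were fitted alone. In dnChd4 Pcgf3 read 8.75 and 8.72 induced and 8.53 and 8.37 repressed, a difference of 0.29 (adjusted p = 0.0764). In dnBrg1, where Auts2 was high, it read 8.84 and 8.80 induced and 8.68 and 8.66 repressed, a difference of 0.15 with a 95% interval from -0.07 to 0.37 (adjusted p = 0.438). Pcgf5, its close relative and the other Pcgf partner of Auts2, lay between 8.57 and 9.09 in every array. Its differences were 0.12 in dnBrg1 (95% interval -0.11 to 0.36), 0.06 in dnChd4 and 0.15 in dnSnf2h, none of them called.

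Bmi1, a Pcgf protein of canonical PRC1 and a known repressor of the Cdkn2a locus, was lower in induced than in repressed arrays of every dominant-negative line without passing the test. It read 8.67 and 8.78 in induced against 9.04 and 8.91 in repressed dnBrg1 arrays, 8.96 and 9.03 against 9.22 and 9.26 in dnChd4, and 8.77 and 8.91 against 9.06 and 9.07 in dnSnf2h. The groups did not overlap in any of the 3, as was so for 53.4%, 60.1% and 46.4% of all genes in dnBrg1, dnChd4 and dnSnf2h. The share of genes apart in all 3 lines was not counted. The differences were -0.25 (adjusted p = 0.106), -0.25 (adjusted p = 0.0942) and -0.23 (adjusted p = 0.126) in dnBrg1, dnChd4 and dnSnf2h. With quantile normalization the dnBrg1 and dnChd4 differences passed (adjusted p = 0.0314 and 0.0158), and with array weights the dnChd4 difference did (adjusted p = 0.0277).

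Cbx2, a chromobox subunit of canonical PRC1, fell in all 3 dominant-negative lines, as 3.06% of all genes did, while 4.62% rose in all 3. It read 7.24 and 7.05 in induced against 7.53 and 7.84 in repressed dnBrg1 arrays. It read 6.81 and 6.99 in induced against 7.40 and 7.52 in repressed dnChd4 arrays, and 6.89 and 6.95 in induced against 7.35 and 7.23 in repressed dnSnf2h arrays. In each line both induced arrays lay below both repressed arrays, where 53.4%, 60.1% and 46.4% of all genes had no overlap in either direction (dnBrg1, dnChd4 and dnSnf2h). The differences were -0.54 (SE 0.118, adjusted p = 0.00603), -0.56 (SE 0.118, adjusted p = 0.00368) and -0.37 (SE 0.118, adjusted p = 0.0412), or 0.687, 0.680 and 0.772 of the repressed level. Single arrays ended some of these calls: repressed replicate 2 (adjusted p = 0.0896 without it) or induced replicate 2 (0.0954) in dnBrg1, and repressed replicate 2 (0.0554) or induced replicate 1 (0.0641) in dnChd4. The dnSnf2h call was lost without any 1 of 8 arrays, namely both induced dnBrg1 arrays (0.051 each), both repressed dnChd4 arrays (0.055 each), repressed dnSnf2h replicates 1 (0.132) and 2 (0.0506) and induced dnSnf2h replicates 1 (0.172) and 2 (0.0936).

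Cbx7 and Cbx8, chromobox relatives of Cbx2, were called in no induction. Cbx7 ranged from 6.60 to 7.20 over the 17 arrays and differed by -0.08, 0.18 and 0.14 in dnBrg1, dnChd4 and dnSnf2h. Cbx8, which RefSeq places next to Cbx2 on chromosome 11 with 0 genes between them, ranged from 7.36 to 7.76 and differed by 0.24 (adjusted p = 0.203), -0.06 and 0.23 (adjusted p = 0.2) in the same order of lines. In dnBrg1 and dnSnf2h the neighbours Cbx2 and Cbx8 thus gave differences of opposite sign, of which the Cbx2 ones passed the test. A test of Cbx2 against Cbx8 was not made.

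**Figure D2:**
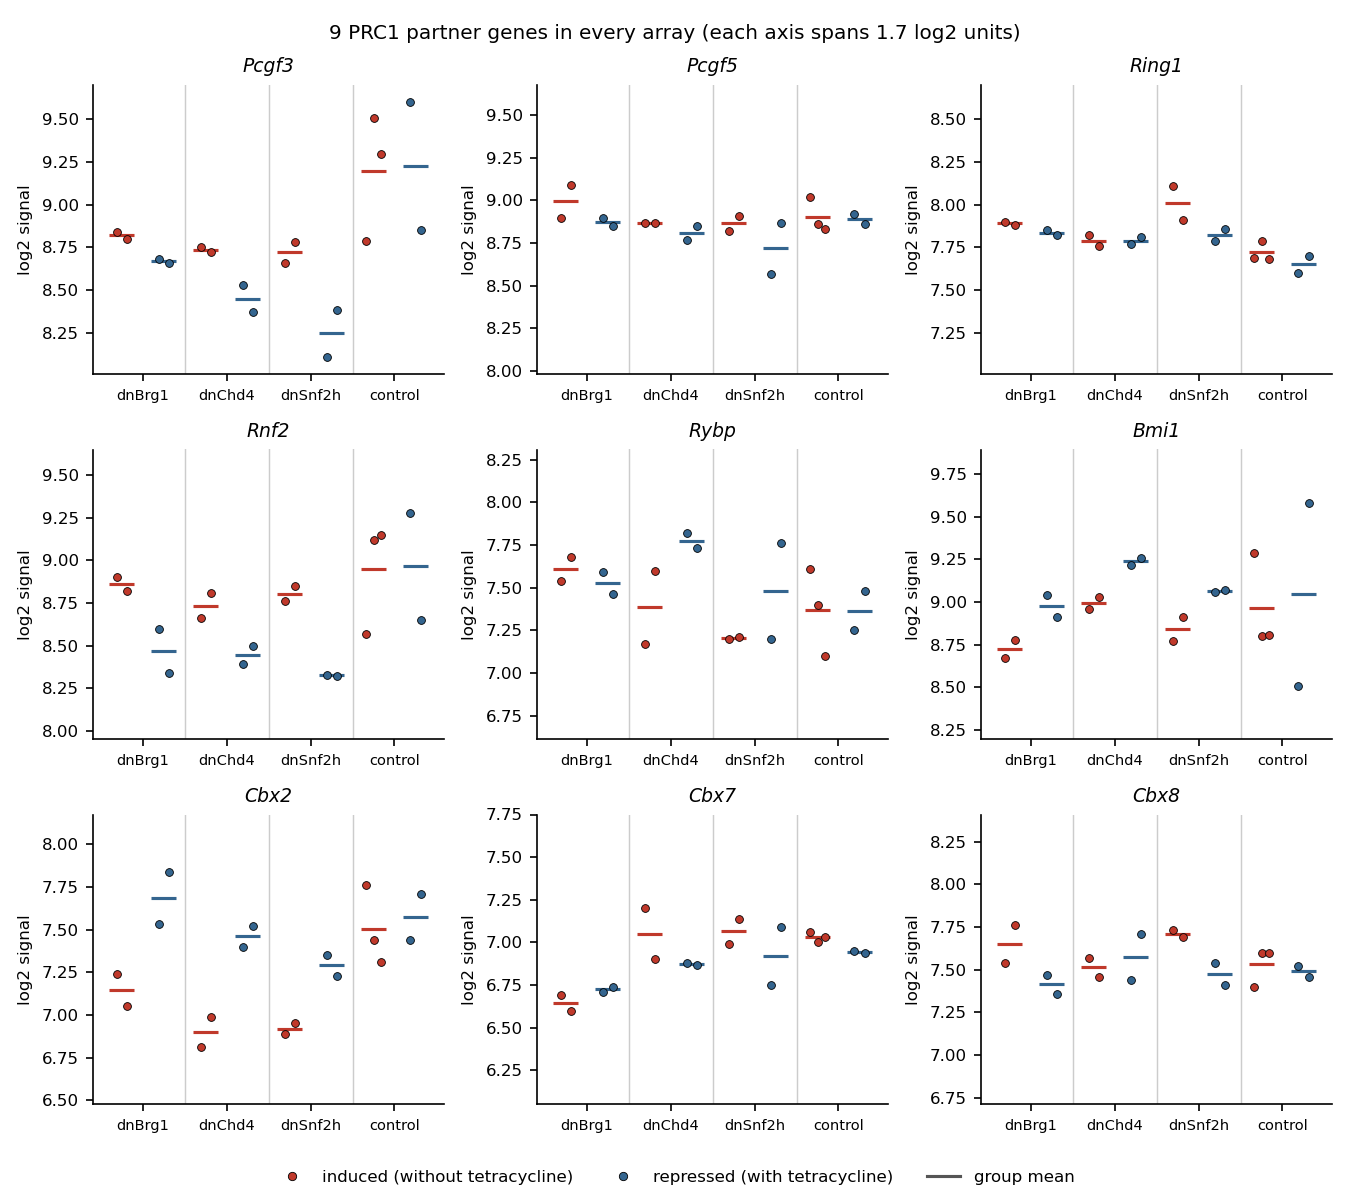
Log2 signal (vertical axis, 1.7 log2 units in every panel) of the 9 PRC1 partners in each line (horizontal axis), with 1 point per array and a bar at each group mean. Cbx2 and Bmi1 are lower in induced than in repressed arrays of every dominant-negative line, Rnf2 and Pcgf3 are higher, and the control arrays of Pcgf3, Rnf2 and Bmi1 spread over more than 0.70 log2 units.

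The control line gave no call for any partner, but its arrays were spread in a way its labels do not follow. Pcgf3 read 8.79, 9.51 and 9.30 in arrays labelled control induced and 9.60 and 8.85 in those labelled control repressed. Rnf2 read 8.57, 9.12 and 9.15 in the induced and 9.28 and 8.65 in the repressed arrays, and Bmi1 read 9.29, 8.80 and 8.81 in the induced and 8.51 and 9.58 in the repressed arrays. In all 3 genes control induced replicate 1 sat with control repressed replicate 2 and apart from the other 3 control arrays. The labelled differences were -0.03, -0.02 and -0.08 for Pcgf3, Rnf2 and Bmi1. The control libraries labelled induced replicate 1 and repressed replicate 1 were then left out, a choice made with those correlations known. That keeps 1 repressed control array and compares the sets found in these same data, so it is no test of control induction. The control differences over these 15 arrays were 0.55 for Pcgf3, 0.49 for Rnf2, -0.77 for Bmi1 and -0.33 for Cbx2.

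The choice of arrays decides every partner call. With all 17 arrays in 1 fit, the control arrays enter the pooled spread and no partner passed in any dominant-negative induction: the adjusted p became 0.532 and 0.389 for Rnf2 in dnBrg1 and dnSnf2h, 0.426 for Pcgf3 in dnSnf2h, and 0.206, 0.338 and 0.387 for Cbx2 in dnBrg1, dnChd4 and dnSnf2h. The differences themselves are the same in both fits. The SD of Pcgf3 was 0.37 (n = 3) in induced and 0.53 (n = 2) in repressed control arrays, against 0.01 to 0.19 in the 6 dominant-negative groups.

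**Figure D3:**
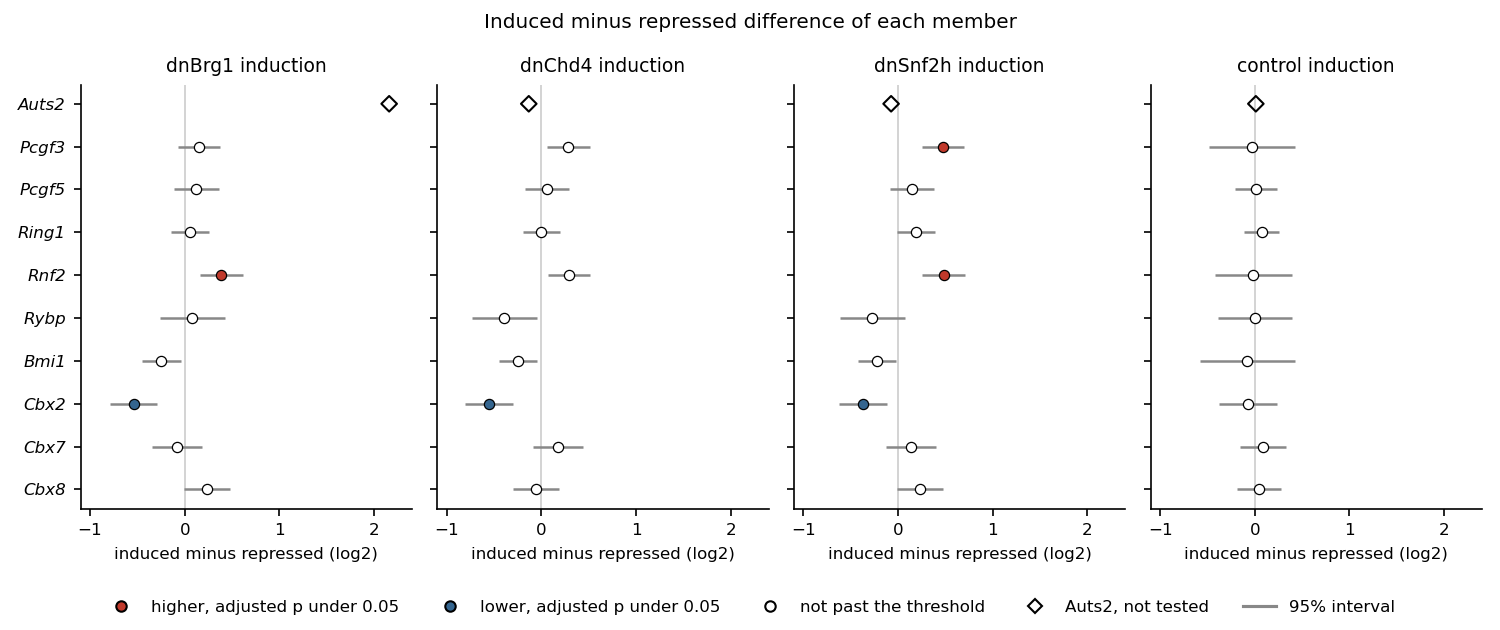
Induced minus repressed difference (horizontal axis, log2) of each gene (vertical axis) in the 4 lines, with 95% intervals from limma for the 9 partners and open diamonds for Auts2, which was not tested. Auts2 stands at 2.16 in dnBrg1 and within 0.13 of 0 in the other lines, and filled points mark the 6 partner differences past the threshold.

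Whether a partner responded differently between the lines was tested directly, and none did past the threshold. Over 9 partners and 3 pairs of lines the 27 differences between inductions ran from -0.33 to 0.47, with a lowest adjusted p of 0.48. Their 95% intervals reached from -0.64 to 0.95, so differences of that size are not excluded for single genes. Of all genes, 1.27% were called for dnBrg1 minus dnChd4, 0.632% for dnBrg1 minus dnSnf2h and 0.13% for dnChd4 minus dnSnf2h. Auts2 gave 2.29, 2.23 and -0.06 in those 3 comparisons, as a description. Setting each dominant-negative induction against that of control also gave no partner call with 17 arrays, where 0.0903%, 0.0401% and 0% of all genes were called for dnBrg1, dnChd4 and dnSnf2h. With 15 arrays and a single repressed control array, the Bmi1 difference for dnBrg1 minus control was 0.53, where the 17-array value was -0.17.

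Some partners differed between the repressed lines. Repressed dnBrg1 cells had more Pcgf3 than repressed dnSnf2h cells, 8.67 ± 0.01 against 8.24 ± 0.19 (SD, n = 2 each), a difference of 0.43 (SE 0.105, adjusted p = 0.0129). They also had more Cbx2, 7.68 ± 0.22 against 7.29 ± 0.08, a difference of 0.39 (SE 0.118, adjusted p = 0.0381). These were 2 calls in 9 where 14.3% of all genes were called (7.61% higher). No partner was called between repressed dnBrg1 and repressed dnChd4, where 14.4% were, or between repressed dnChd4 and repressed dnSnf2h, where 0.015% were. Both calls were lost with 17 arrays (adjusted p = 0.436 for Pcgf3 and 0.235 for Cbx2). The Pcgf3 call was also lost without repressed dnBrg1 replicate 1 (0.0669) or 2 (0.0552) or repressed dnSnf2h replicate 1 (0.0818), and the Cbx2 call without repressed dnBrg1 replicate 2 (0.299), repressed dnSnf2h replicate 2 (0.147) or either repressed dnChd4 array (0.0523 each).

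Rybp, the subunit that marks variant PRC1, was measured by 2 probe sets that disagreed. Probe set 10410209, which had the higher mean and was used above, lies by probe set number among neighbours of which 17 of 18 are on chromosome 13, whereas RefSeq places Rybp on chromosome 6. Probe set 10546706 has 16 of 20 neighbours on chromosome 6. The position of either probe sequence was not analysed here.

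Probe set 10546706 read 8.03 and 8.07 in induced dnBrg1 arrays against 7.85 and 7.45 in repressed ones, 7.48 and 7.25 against 7.30 and 7.28 in dnChd4, and 7.65 and 7.57 against 7.24 and 7.38 in dnSnf2h. The control arrays read 7.12, 7.13 and 7.23 induced and 7.12 and 7.12 repressed, so the induced dnBrg1 arrays were the highest of all 17. In a fit over all singly named probe sets its difference was 0.40 in dnBrg1 (SE 0.124, adjusted p = 0.0463), 0.07 in dnChd4 and 0.30 in dnSnf2h (adjusted p = 0.12). Probe set 10410209 gave 0.08, -0.39 (adjusted p = 0.119) and -0.27 (adjusted p = 0.297) in that fit, and read 7.54 and 7.68 induced against 7.59 and 7.46 repressed in dnBrg1. Through the second probe set the Rybp direction in dnChd4 and dnSnf2h was the opposite of the first, so no direction is given for the gene.

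**Figure D4:**
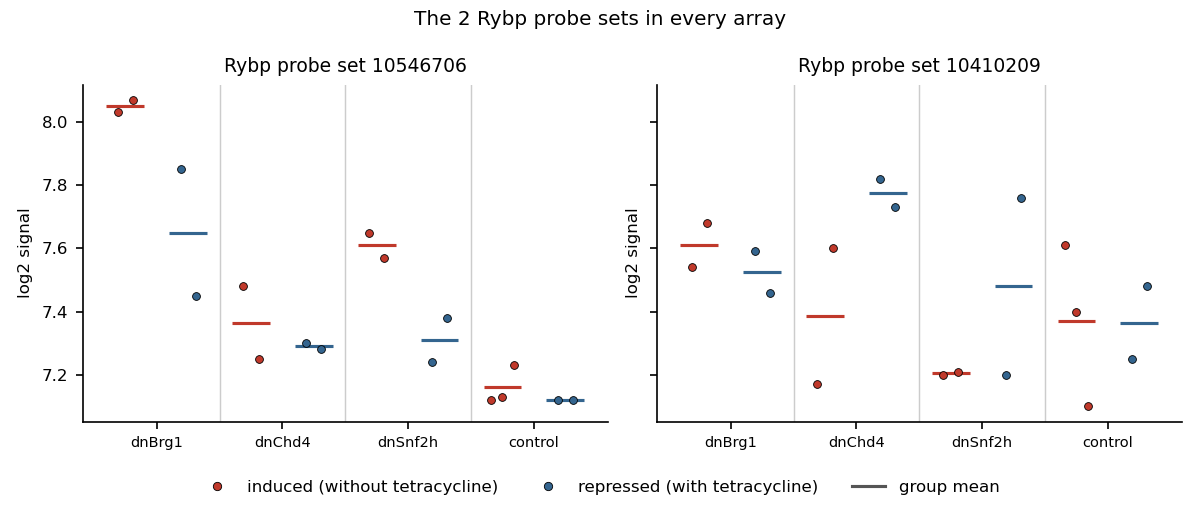
Log2 signal (vertical axis, shared) of the 2 Rybp probe sets in each line (horizontal axis), with 1 point per array and a bar at each group mean. Probe set 10546706 is highest in induced dnBrg1 arrays, at 8.03 and 8.07, while probe set 10410209 has overlapping induced and repressed arrays there.

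Other genes of the Polycomb system were counted from lists of known subunits. At most 3 called genes for a list and line could be named, so a gene named in 1 line may have been called in another. Of 21 measured further PRC1 subunits, 2 rose and 1 fell in dnBrg1, 5 rose and 2 fell in dnChd4, and 5 rose and 2 fell in dnSnf2h, with medians of 0.00, 0.06 and 0.06. Those calls were 14.3%, 33.3% and 33.3% of the list, against 14.2%, 18% and 17.5% of all genes. Bcorl1, a corepressor of a variant complex, rose by 0.70 in dnChd4 (adjusted p = 0.000206) and 0.84 in dnSnf2h (adjusted p = 6e-05). Skp1, an adaptor of the same kind of complex, rose by 0.46 in dnBrg1 (adjusted p = 0.00261). Skp1 read 9.96 and 10.02 in induced against 9.67 in both repressed dnChd4 arrays, and 10.00 and 9.95 against 9.74 and 9.84 in dnSnf2h. Bcorl1 read 7.02 and 7.05 in induced against 6.08 and 6.31 in repressed dnSnf2h arrays. Dcaf7, a WD-repeat adaptor gene, rose by 0.51 in dnChd4 and by 0.37 in dnSnf2h (adjusted p = 0.00822). Scmh1 rose by 0.60 in dnChd4 and by 0.40 in dnBrg1 (adjusted p = 0.0313). In dnSnf2h Scmh1 read 7.89 and 7.91 in induced against 7.40 and 7.57 in repressed arrays. The dnSnf2h call of Dcaf7 was ended by leaving out 1 array, and the dnBrg1 call of Scmh1 by any of 3. In dnSnf2h Wdr5, shared with histone methyltransferase complexes, fell by 0.49 (adjusted p = 0.00243).

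Among the Auts2 paralogs, casein kinase 2 and p300 genes, 5 measured, only Fbrsl1 was called in an induction. Calls made up 0%, 20% and 20% of that list in dnBrg1, dnChd4 and dnSnf2h, beside 14.2%, 18% and 17.5% of all genes. This Auts2 paralog read 7.49 and 7.44 in induced against 6.76 and 6.94 in repressed dnSnf2h arrays and rose by 0.62 there (SE 0.0976, adjusted p = 0.00048). In dnChd4 it rose by 0.46 (adjusted p = 0.0038), a call lost without repressed replicate 2 (0.0645) or induced replicate 1 (0.0546). In dnBrg1, where Auts2 was high, it read 7.39 and 7.31 in induced and 7.15 and 7.09 in repressed arrays and was not called.

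Of 12 PRC2 genes, which encode the complex that methylates histone H3, 1 rose and 1 fell in dnBrg1, and 2 rose and 2 fell in each of dnChd4 and dnSnf2h, which were 16.7%, 33.3% and 33.3% of the list beside 14.2%, 18% and 17.5% of all genes. Ezh2, the methyltransferase, read 9.18 and 9.17 in induced against 9.87 and 9.70 in repressed dnBrg1 arrays and fell by 0.61 (adjusted p = 0.00244). In dnChd4 Ezh2 read 9.07 and 9.12 in induced against 9.44 and 9.51 in repressed arrays. It also fell by 0.45 in dnSnf2h (adjusted p = 0.0133), a call lost without repressed replicate 2 or induced replicate 1, with a highest adjusted p of 0.152. Phf19, an accessory subunit, fell by 1.06 in dnSnf2h (adjusted p = 0.000313), with 6.15 and 6.79 in induced against 7.40 and 7.66 in repressed arrays, and by 0.60 in dnChd4 (adjusted p = 0.0152), a call lost without any 1 of the 4 dnChd4 arrays (highest adjusted p = 0.110). Phf1, its relative, rose by 0.55 in dnChd4 (adjusted p = 0.00117). In dnSnf2h Phf1 read 7.24 and 7.37 in induced against 6.93 and 6.91 in repressed arrays. Jarid2, a cofactor that recruits PRC2, rose in all 3 lines. Its rise was 0.40 in dnBrg1 (adjusted p = 0.00678), 0.39 in dnChd4 (adjusted p = 0.00598) and 0.39 in dnSnf2h (adjusted p = 0.00587). The Jarid2 call was lost in dnBrg1 without repressed replicate 2, induced replicate 1 or induced replicate 2 (highest adjusted p = 0.0666) and in dnChd4 without induced replicate 1 (0.0784). Of 7 genes for enzymes that remove ubiquitin from H2A and their cofactors, 1 fell in dnBrg1, 1 rose in dnChd4, and 2 rose and 1 fell in dnSnf2h, or 14.3%, 14.3% and 42.9% of that list.

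Of 21 measured genes that Polycomb is known to silence, 2 fell in dnBrg1, 1 rose in dnChd4 and 1 fell in dnSnf2h, with medians of -0.03, -0.11 and -0.06. Those calls were 9.52%, 4.76% and 4.76% of the list, below the 14.2%, 18% and 17.5% of all genes. Tbx3, a T-box factor gene with a role in mammary development, read 7.53 and 7.37 in induced against 8.56 and 8.38 in repressed dnBrg1 arrays and 6.90 to 7.44 in the arrays of the other lines. It fell by 1.02 in dnBrg1 (SE 0.118, adjusted p = 5.57e-05). Repressed dnBrg1 cells exceeded repressed dnChd4 cells by 1.37 (adjusted p = 2.73e-06) and repressed dnSnf2h cells by 1.42 (adjusted p = 1.91e-06). The neural factor gene Pax6 fell by 0.60 in dnSnf2h (adjusted p = 0.00326) and by 0.47 in dnBrg1 (adjusted p = 0.0187). Any 1 of 3 arrays ended the dnBrg1 call of Pax6 when left out.

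Over these lists 28 induction calls could be named, at most 3 for a list and line. Leaving out each array in turn, 13 of them held throughout, and 15 were ended by at least 1 array, among them those named above as lost. In the 17-array fit 8 of the 49 named calls of all contrasts still passed, among inductions only the Tbx3 fall in dnBrg1 (adjusted p = 0.0129). In control, no gene of these lists was called with 17 arrays, where 0% of all genes were. With the 15 arrays described above, which keep a single repressed control array, the control difference was 1.04 for Bcorl1, 0.91 for Jarid2, 0.89 for Fbrsl1 and -1.59 for Phf19. It was 0.73 for Scmh1, 0.58 for Dcaf7, 0.54 for Phf1, 0.35 for Skp1 and -0.56 for Wdr5. For Ezh2 it was -0.08, for Tbx3 0.22 and for Pax6 0.13. These values are a description, because the libraries were left out with their correlations known.

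**Figure D5:**
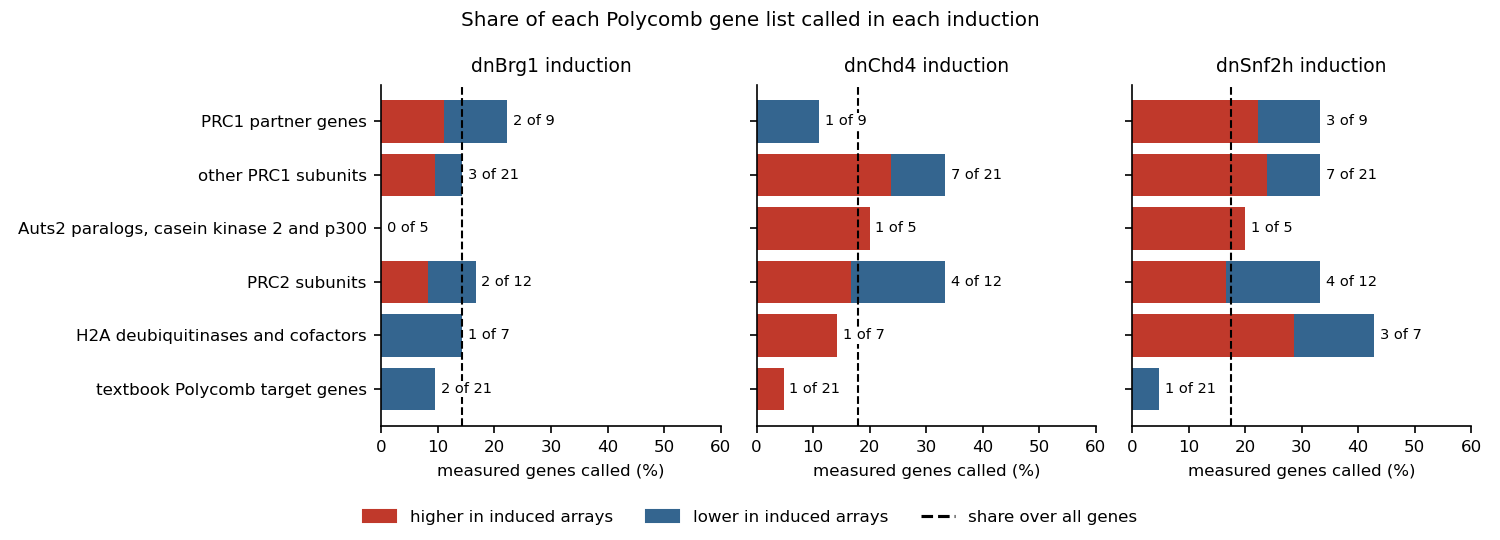
Share of the measured genes of each Polycomb list (vertical axis) that was called in each dominant-negative induction (horizontal axis, percent), split into higher and lower in induced arrays, with the share over all genes as a dashed line. The further PRC1 subunits stand at 14.3%, 33.3% and 33.3% in dnBrg1, dnChd4 and dnSnf2h, beside 14.2%, 18% and 17.5% of all genes.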

How the data were processed

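The authors deposited log2 signals for every probe set of the 17 arrays, made with Affymetrix Expression Console, per the submitters' processing notes. The scale was judged from the values (2.02 to 14.86, array medians 5.48 to 5.63), and neither the software version, the normalization nor the genome build is stated in the sources used here. The number of arrays limits the precision.

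Of 35557 probe sets, 21789 had 1 gene symbol, and the highest-mean probe set of each gene left 19938 genes. Each group's mean was fitted without further scaling, using eBayes moderation in limma 3.58.1 (R 4.3.3), on 12 arrays for contrasts among dominant-negative lines and on 17 for contrasts with control. P-values were adjusted over all genes by the Benjamini-Hochberg method at 0.05, in 13 contrasts. The fit was tested on simulated data with known changes.

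The members and lists were chosen with earlier results of these data known. All 10 members were named, and the 5 genes closest to Auts2 over 17 and over 12 arrays. At most 3 called genes for each list and contrast, those with the smallest adjusted p, could be named. The text gives only a part of these, and none from the list of H2A deubiquitinases and cofactors. Alternatives were the other array sets, a replicate block, trended or robust eBayes, array weights, removal of dim genes, quantile normalization, median centring, other probe set choices and each array left out in turn. Replicate numbers did not pair the samples: over 15 pairs of dominant-negative groups, the correlation of same-numbered deviations ran from -0.393 to 0.313 and passed 0.1 in 3.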

Additional observations from a re-analysis of the deposited data

Results flagged for a closer look

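Tbx3 responded differently in the dnBrg1 line. Its induction there minus that in dnChd4 was -1.14 (adjusted p = 0.00208 by limma on 12 arrays) and minus that in dnSnf2h was -0.96 (adjusted p = 0.013). Leaving out repressed dnBrg1 replicate 1 (adjusted p = 0.0798), induced dnBrg1 replicate 2 (0.114) or induced dnSnf2h replicate 2 (0.0613) ended the second call and no single array ended the first, while with 17 arrays both were lost (adjusted p = 0.115 and 0.538). The induced dnBrg1 arrays, at 7.53 and 7.37, lay near the other lines, and the repressed dnBrg1 arrays, at 8.56 and 8.38, lay above them.

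Auts2 signals lay above those of the repressed arrays in both induced dnBrg1 arrays and below them in both induced dnChd4 arrays. The difference between those inductions was 2.29, and it was not tested because Auts2 was chosen for this pattern. The dnChd4 side of it was -0.13, with induced arrays at 4.74 and 4.70, under the level of 4.77 for dim genes, so no fall of Auts2 in dnChd4 is read from it.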

How the results depend on the processing

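Partner calls depended on which arrays set the spread. With all 17 arrays, 0 partners were called in the dnBrg1, dnChd4 and dnSnf2h inductions and between repressed dnBrg1 and dnSnf2h, against 2, 1, 3 and 2 with 12 arrays, and over all genes 68, 19 and 1 were called in the 3 inductions, against 2839, 3590 and 3497. With 15 arrays, which keep a single repressed control array, calls over all genes rose in the control induction and in the inductions minus control. In that fit Pcgf3 (0.55) and Rnf2 (0.49) in control and Bmi1 (0.53) in dnBrg1 minus control took the opposite sign. With only the arrays of the lines compared, the counts were 1 in dnSnf2h (1446 genes) and 1 each for repressed dnBrg1 minus dnChd4 and minus dnSnf2h. Array weights gave 5 in dnChd4 and 0 for repressed dnBrg1 minus dnSnf2h, quantile normalization gave 3 in dnChd4 and 1 for each repressed dnBrg1 difference, and median centring gave 1 for repressed dnBrg1 minus dnSnf2h. Over all genes, the differences between inductions fell to 26, 7 and 8 calls with 17 arrays, against 254, 126 and 26 for dnBrg1 minus dnChd4, dnBrg1 minus dnSnf2h and dnChd4 minus dnSnf2h. Fitting only the lines compared gave 445 and 65 for the first and second of these, and array weights gave 550 and 77. Repressed dnBrg1 minus dnChd4 and minus dnSnf2h gave 804 and 775 with 17 arrays, against 2875 and 2857, and the second gave 1451 with array weights, which also gave 2063 in the dnSnf2h induction. The cause of these shifts was not tested. Leaving out each array in turn gave 0 to 2 calls in dnBrg1, 0 to 3 in dnChd4 and 0 to 2 for repressed dnBrg1 minus dnSnf2h. Over all genes it gave 1353 (without induced dnBrg1 replicate 2) to 3423 in dnBrg1, 1926 (without repressed dnChd4 replicate 2) to 4180 in dnChd4 and 2342 to 4204 in dnSnf2h. Without repressed dnSnf2h replicate 1 the count was 500, against 3, for repressed dnChd4 minus dnSnf2h and 175, against 26, for the difference between those inductions. The ranges were 106 (without repressed dnChd4 replicate 2) to 382 for the dnBrg1 minus dnChd4 inductions, 46 (without induced dnBrg1 replicate 2) to 265 (without repressed dnSnf2h replicate 1) for dnBrg1 minus dnSnf2h, 1345 (without repressed dnChd4 replicate 2) to 3508 for repressed dnBrg1 minus dnChd4 and 1784 (without repressed dnBrg1 replicate 1) to 3377 for repressed dnBrg1 minus dnSnf2h. The Auts2 difference in dnBrg1 moved by less than 1 SD of its replicates in every alternative. Leaving out an array leaves an arm with 1 sample, assumed to vary like the other groups.

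The replicate number as a block left the partner counts at 2, 1 and 3 in dnBrg1, dnChd4 and dnSnf2h, and the numbers do not pair the samples.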
